A study of Mus musculus with 4 samples.

Results

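The T cells of the mouse brain were described here in single-cell RNA sequencing of 4 whole brains from a study of age and dietary inulin, a fermentable plant fibre. A cell barcode was taken as a T cell when it held at least 4 unique molecular identifiers (UMIs, each standing for 1 captured RNA molecule) of Cd3d, Cd3e, Cd3g, Trac and Trbc2 together. It also had at least 1000 UMIs in all, up to 15.8% of them mitochondrial, fewer than 30 UMIs of the complement genes C1qa, C1qb and C1qc per 10000 UMIs, and fewer than 15 UMIs of the endothelial genes Cldn5, Flt1 and Ly6c1. The cells were therefore selected on measured values, and the levels of these 11 genes are given only as a description. The rule found 640 T cells among 30941 barcodes past the UMI and mitochondrial limits, of 36876 barcodes in the files.

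The 4 mice were C57BL/6J animals, 1 for each combination of age and diet. The adult mice began the diets at 3 to 4 months of age and the aged mice at 23 to 24 months. The brains were taken after a period of weeks on the diets, so the mice were older than this at sampling. The low-fibre diet held 0% inulin and the high-fibre diet 5% inulin, and both held 1% cellulose. Values for single mice are given below in the order adult fed 0%, adult fed 5%, aged fed 0% and aged fed 5% inulin. With 1 mouse per combination, age was compared over 2 mice against 2 with both diets in each group, and any difference between the brains that arose in dissociation, or in the removal of myelin and dead cells, cannot be told apart from a difference between the mice. The study's methods state that the mice were perfused with buffered saline, and T cells left inside vessels cannot be told apart from T cells in the tissue.

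T cells recognise peptide antigens with a receptor of an alpha and a beta chain, or less often of a gamma and a delta chain, which signals through the CD3 proteins. CD8 T cells read peptides on class I MHC molecules and kill target cells with granzymes, while CD4 T cells read class II MHC and act largely through cytokines and contact signals. Few T cells are found in the healthy young brain, most of them in the meninges, the choroid plexus and around vessels, and CD8 T cells with features of tissue residency are known to gather there with age.

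The 4 mice gave 71, 86, 190 and 293 T cells. Their median UMI counts per cell were 6166, 6264.5, 6180 and 5655, and their median numbers of genes per cell 1983, 2076, 2004.5 and 1887, so that depth per cell was alike in the 4 mice. The UMIs of all T cells together numbered 567776, 572560, 1424484 and 2216486. The median share of mitochondrial UMIs was 3.23%, 3.48%, 4.18% and 4.61%, higher in both aged mice. The T cells held a median of 22, 25, 24.5 and 22 UMIs of the 5 receptor and CD3 genes, far above the limit. Just inside it were 9 cells with 4 such UMIs, and just outside it 12 barcodes with 3 and 48 with 2. Near the other limits, 2 members held 10 to 14 endothelial UMIs and 1 barcode was left out at 15 to 19, and 1 member lay at 20 to 30 complement UMIs per 10000 and 1 left out at 30 to 40. Cd3e was seen in 84.5%, 83.7%, 95.3% and 89.4% of the T cells and Trbc2 in 94.4%, 96.5%, 98.9% and 94.5%, which describes the choice of cells, since the rule used both genes. Thinned to 1000 UMIs, Cd3e was seen in 31.0%, 34.9%, 35.3% and 37.9% of them, against at most 0.214% of barcodes with endothelial genes. Other marker lists had UMIs too: 7 of 8 oligodendrocyte genes (led by Cnp, with Mog at 0), 11 of 12 macrophage and monocyte genes (led by Ly6c2, with Cd163 at 0) and 5 of 6 red cell genes (led by Hbb-bs, with Alas2 at 0). Ly6c2 was also higher in CD8 than in CD4 T cells (below), so its UMIs do not show macrophage RNA. All 10 astrocyte and all 10 endothelial genes had UMIs.

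Some of the barcodes also carried RNA of another cell type. A droplet was called mixed when it held at least 200 UMIs of Ttr, the transthyretin gene of the choroid plexus, per 10000 UMIs or at least 20 UMIs of the genes of 1 other cell type. These types were astrocytes, oligodendrocytes, neurons, mural cells, myeloid cells, granulocytes, and B and plasma cells, with no set for fibroblasts. There were 4, 4, 10 and 15 such droplets, 33 in all or 5.16% of the T cells, and 11 were called through Ttr. They held 26.3%, 9.39%, 15.8% and 26.8% of the T cell UMIs. The Scrublet doublet score, computed per mouse, called 11 T cells, 10 of which were among these 33. Choroid plexus genes summed to 78783, 5657, 22634 and 46993 UMIs per 1000000 over all T cells and to 6667, 5760, 3527 and 4050 without the mixed droplets. In the aged mouse fed 0% inulin, B cell genes stood at 5837 UMIs per 1000000 with the mixed droplets and at 139 without them, and granulocyte genes at 4168 and 145. Microglial genes, led by Ctss, stood at 336, 461, 491 and 430 UMIs per 1000000 over all T cells and at 275, 476, 473 and 401 without the mixed droplets. Astrocyte genes, led by Cst3, stood at 2062, 2377, 2032 and 2364 over all T cells and at 734, 704, 851 and 800 without them. Endothelial genes, led by Bsg, stood at 1619, 884, 1330 and 1714 and at 851, 900, 1034 and 1138. Comparisons were therefore made over all 640 T cells and again over the 607 left without mixed droplets (67, 82, 180 and 278), an alternative chosen after seeing the data. Of 192 barcode sequences found in more than 1 mouse, 5 belonged to a T cell, and none was a T cell in both.

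T cells made up a larger share of the barcodes in both aged brains. The shares were 0.902% (95% Clopper-Pearson interval 0.705 to 1.14), 1.00% (0.804 to 1.24), 2.86% (2.48 to 3.29) and 3.72% (3.32 to 4.17). The intervals, which cover counting error only, of the adult mice did not overlap those of the aged mice. Adult mice averaged 0.953% ± 0.0724 and aged mice 3.29% ± 0.608 (SD, n = 2 per age), a ratio of 3.46 and a difference of 2.34 percentage points. The exact two-sided permutation test gave p = 0.333, the smallest that 2 mice against 2 allow. Natural killer (NK)-like barcodes held at least 3 UMIs of the NK genes Ncr1, Klrb1c and Klre1 and fewer than 4 of the receptor and CD3 genes. They numbered 4, 10, 2 and 9, or 0.0508%, 0.117%, 0.0302% and 0.114%. Their shares overlapped between the ages. The same NK limit was met by 54 of the T cells (6, 16, 18 and 14), so the T cell and NK-like sets are not cleanly separated.

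**Figure D1:**
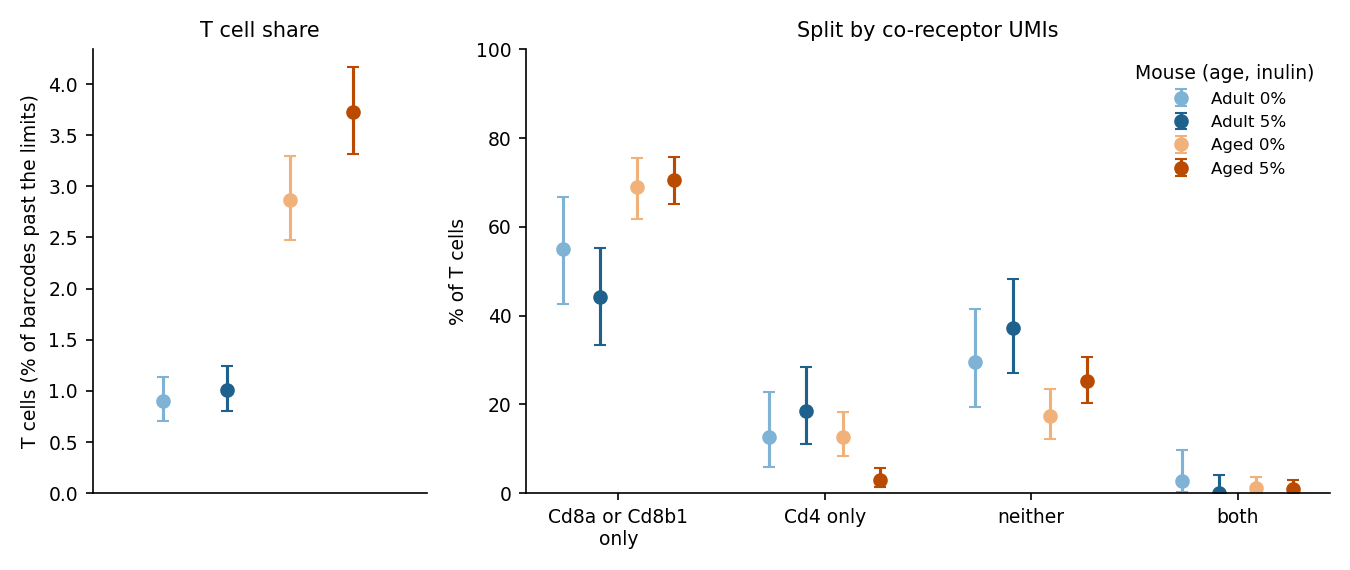
Left, T cells as a percentage of the barcodes past the UMI and mitochondrial limits in each mouse, with 95% Clopper-Pearson intervals; right, the percentage of the T cells of each mouse with UMIs of Cd8a or Cd8b1 only, Cd4 only, neither, or both. The aged mice stand at 2.86% and 3.72%, above the adult mice at 0.902% and 1.00%.

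Most T cells carried CD8 transcripts. The genes are Cd8a (chr6:71373427-71379173, GRCm38) and Cd8b1 (chr6:71322788-71337494), which encode the 2 chains of the CD8 co-receptor, and Cd4 (chr6:124864692-124888221). By these UMIs 415 cells held Cd8a or Cd8b1 only, 58 Cd4 only, 160 neither and 7 both. CD8 cells were 39, 38, 131 and 207, or 54.9% (42.7 to 66.8), 44.2% (33.5 to 55.3), 68.9% (61.8 to 75.4) and 70.6% (65.1 to 75.8) of the T cells. Adult mice averaged 49.6% ± 7.60 and aged mice 69.8% ± 1.20 (SD, n = 2 per age, exact permutation p = 0.333), and the 4 values did not overlap between the ages. With every cell thinned to 1000 UMIs the CD8 shares were 47.9%, 33.7%, 48.9% and 55.3%, and the difference of the means fell from 20.2 to 11.3 percentage points. CD4 cells were 9, 16, 24 and 9, or 12.7% (5.96 to 22.7), 18.6% (11.02 to 28.4), 12.6% (8.26 to 18.2) and 3.07% (1.41 to 5.75). The low share belonged to the aged mouse fed 5% inulin alone, and the adult and the aged mouse fed 0% inulin hardly differed. Cells with neither were 29.6%, 37.2%, 17.4% and 25.3% of the T cells, lower in both aged mice.

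The split was firmer for CD8 than for CD4. CD8 cells held a median of 9 CD8 UMIs, and 12 of 415 (2.89%) held a single one. CD4 cells held a median of 1.5 Cd4 UMIs, at most 5, and 29 of 58 held a single one. Since single UMIs of Cd4 decided many of these calls, absence of Cd4 UMIs cannot be read as absence of the protein.

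Transcripts of some cytotoxic and residency genes were common in the T cells of all 4 mice and those of others were rare. The cytotoxic chemokine gene Ccl5 stood at 4377, 6141, 6538 and 7739 CPM (UMI counts per 1000000, with TMM-scaled totals of the tested genes, here without mixed droplets). Nkg7, a protein of cytotoxic granules, stood at 1129, 1362, 1572 and 1673 CPM. Both were somewhat higher in the aged mice, but neither was called (Ccl5 log2 fold change 0.44, edgeR adjusted p = 0.191, and Nkg7 0.38, adjusted p = 0.154). Cxcr6, a chemokine receptor of resident T cells, was seen in 67.6%, 68.6%, 73.2% and 82.3% of the T cells, 487 of 640 in all, and its level of 374, 383, 407 and 593 CPM gave a log2 fold change of 0.41 (adjusted p = 0.438). Thinned to 1000 UMIs, 28.2%, 38.4%, 27.9% and 40.3% of the cells held it, against at most 0.178% of barcodes with endothelial genes, with no order by age. Gzmk, which encodes granzyme K, was seen in 340 cells, 301 of them CD8 cells (72.5% of the CD8 cells). Gzmb was seen in 133 of the 640 cells, Prf1 (perforin) in 157, Gzma in 41 and the integrin gene Itgae (CD103) in 45.

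The comparison of age asked which genes of brain T cells differ between adult and aged mice, with the UMIs of the T cells summed per mouse. Over all 640 T cells edgeR's quasi-likelihood test called 0 of 8506 genes (0%), with 454 (5.34%) at an unadjusted p under 0.05, and DESeq2 called 9 higher and 5 lower (0.165%). Without the mixed droplets 36 genes were called higher and 14 lower in aged mice, 50 of 7464 (0.67%), where a call needed over 1.5-fold change with an adjusted p under 0.05. A further count at an unadjusted p under 0.05 gave 734 (9.83%). With an upper limit on UMIs per cell (22005, set by 3 median absolute deviations over every barcode), 34 were higher and 18 lower, and 44 of these 52 were among the 50. In what follows, genes that rose or fell were called without the mixed droplets and were not called by edgeR over all T cells. Over all T cells Enpp2 and Ttr turned under other settings but not in the main fit (log2 fold change -0.0137 and -0.307). The other 48 of the 50 kept their direction in each of the 17 settings that gave them a value (with thinned cells 28 of the 50 were tested). Leaving out an adult mouse removed most of the 50: no gene was called without the adult mouse fed 5% inulin, and 18 were called without the adult mouse fed 0%, of which 14 were among the 50.

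The interferon-induced genes formed the list with the most called members. Of 26 tested, 8 rose and none fell (0.482% of all genes were called higher), 18 were higher at an unadjusted p under 0.05 (5.83% of all genes), and 24 had a positive fold change. The median log2 fold change was 0.90, against -0.000739 over all tested genes. Isg15, a ubiquitin-like protein induced by type I interferon, stood at 40.5, 35.0, 159 and 142 CPM. It was higher in both aged mice than in either adult mouse, by a log2 fold change of 2.00 ± 0.214 (SE; edgeR adjusted p = 0.00164), a 3.99-fold rise. Over all T cells it stood at 33.0, 31.4, 138 and 152 CPM, with a log2 fold change of 2.17 and an adjusted p of 0.155.

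Ifit1, a cytoplasmic protein that binds viral RNA, stood at 26.2, 33.1, 119 and 95.8 CPM and rose 3.55-fold (log2 fold change 1.83 ± 0.254, adjusted p = 0.00565). Its neighbour Ifit3 stood at 26.2, 60.3, 143 and 127 CPM and rose 3.01-fold. Irf7, the transcription factor that amplifies type I interferon, stood at 54.8, 35.0, 125 and 123 CPM and rose 2.80-fold. All of these had both aged mice above both adult mice, as did 20.97% of all tested genes. Oasl2, a member of the oligoadenylate synthetase family, was nearly absent in the adult mice, at 2.38 and 0 CPM, and stood at 34.1 and 29.5 CPM in the aged mice. Iigp1, an interferon-inducible GTPase, stood at 21.4, 13.6, 77.7 and 57.8 CPM, Xaf1 at 26.2, 27.2, 79.5 and 85.3, and Ly6a, which encodes the surface protein Sca-1, at 341, 232, 569 and 522. Isg20, an exonuclease of viral RNA outside the list, stood at 47.6, 37.0, 170 and 133 CPM and rose (log2 fold change 1.85, adjusted p = 0.00338), as did Ifitm3 at 26.2, 27.2, 96.0 and 101 CPM. Ifi27l2a was higher but not called (641, 486, 1196 and 769 CPM, log2 fold change 0.80, adjusted p = 0.0771).

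Promoters of 3 called members that hold the interferon-stimulated response element are shown because these genes moved together. The letters searched were GAAA, then any 2 bases, then GAAA, on either strand (TTTC, any 2 bases and TTTC on the other), with overlapping matches counted, from 250 bases before to 50 after the RefSeq start on GRCm38.p6. This motif was held by 3.99% of the promoters of 27025 genes, by 10 of the 18 members of the list with a promoter in that table, and by 3 of the 6 such called members. The naive and central memory list had it in 1 of 12. The 150 bases before the start are printed in the direction of the gene, with the motif in capitals.
Isg15, chr4:156200819-156200968, minus strand: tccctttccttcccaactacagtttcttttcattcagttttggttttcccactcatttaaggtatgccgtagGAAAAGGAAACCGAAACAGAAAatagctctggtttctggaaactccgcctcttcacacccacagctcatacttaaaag
Ifit1, chr19:34640739-34640888, plus strand: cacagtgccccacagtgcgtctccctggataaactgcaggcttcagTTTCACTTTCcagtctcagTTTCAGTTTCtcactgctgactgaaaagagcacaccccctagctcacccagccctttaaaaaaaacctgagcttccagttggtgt
Ifit3, chr19:34583379-34583528, plus strand: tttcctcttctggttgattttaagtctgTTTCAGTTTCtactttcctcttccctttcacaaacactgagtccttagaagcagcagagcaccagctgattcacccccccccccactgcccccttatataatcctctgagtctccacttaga
Isg15 had 3 overlapping matches, Ifit1 had 2 and Ifit3 had 1. A match describes the letters and not the binding of a factor.

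The interferon-induced UMIs were spread unevenly over the cells. The UMIs of 8 such genes (Isg15, Ifit1, Ifit2, Ifit3, Irf7, Usp18, Oasl2 and Rtp4) numbered 97, 115, 924 and 1735 over all T cells, or 171, 201, 649 and 783 UMIs per 1000000. None of the 8 was seen in 50.7%, 61.6%, 31.1% and 36.2% of the cells. At least 5 UMIs were held by 5, 4, 41 and 59 cells, and at least 20 UMIs by 1, 2, 12 and 16 cells. Of the 109 cells with at least 5, 88 were CD8 cells, where CD8 cells were 415 of all 640 T cells. They were 68.9% and 70.6% of the T cells of the aged mice, which held most of the 109. The 5 highest cells of each mouse held 58.8%, 68.7%, 32.0% and 45.2% of these UMIs. All of these counts include mixed droplets. In the aged mouse fed 5% inulin, Ifit1 stood at 149 CPM with mixed droplets and 95.8 without, and Oasl2 at 69.5 and 29.5. Isg15 (152 and 142 CPM) and Irf7 (114 and 123) changed less there. The part of mixed droplets in the spread over cells was not tested.

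**Figure D2:**
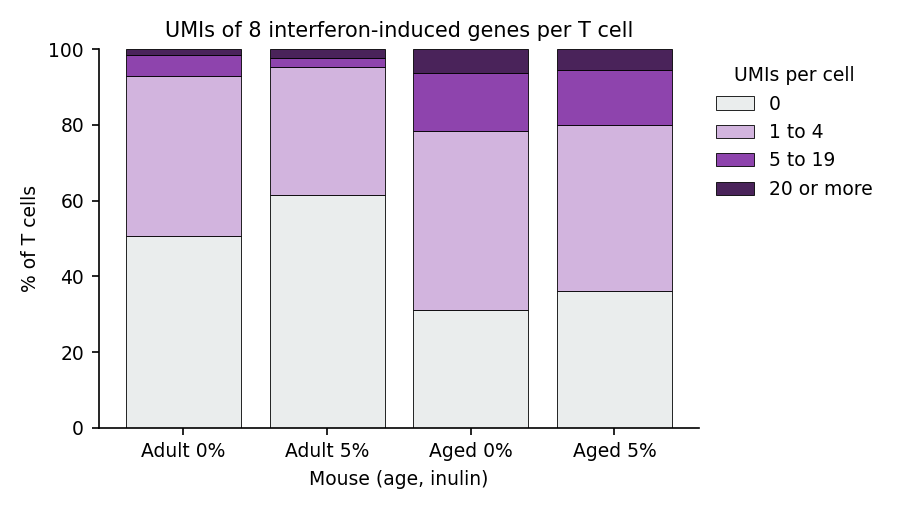
Percentage of the T cells of each mouse, mixed droplets included, with 0, 1 to 4, 5 to 19, and 20 or more UMIs of 8 interferon-induced genes. Cells with 0 make up 50.7% and 61.6% in the adult mice and 31.1% and 36.2% in the aged mice.

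Isg15 and Irf7 also had higher levels in the rest of the aged brains. In all other barcodes Isg15 stood at 28.8, 45.5, 125 and 148 CPM and Irf7 at 18.96, 26.9, 57.5 and 79.5 CPM. The test of the difference between the age effects of T cells and of all other barcodes, with the mouse as a block, gave 0.37 (log2) for Isg15 (unadjusted p = 0.233). It called 1 of the 26 interferon genes (0.186% of all genes), Ifi27l2a, whose age effect was lower in T cells by 1.86 (log2). Thinned to 1000 UMIs, a UMI of Isg15 was seen in 2.82%, 1.16%, 7.89% and 6.48% of T cells, and in 9.41%, 11.9%, 14.03% and 12.99% of barcodes with endothelial genes. The part of free RNA from other cells in the T cell values was not tested.

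Among genes of naive and central memory T cells the calls were of lower levels in the aged mice. Of 14 tested, 3 fell and none rose (0.188% of all genes were called lower). At an unadjusted p under 0.05, 11 were lower (4.01% of all genes), and the median log2 fold change was -1.05. The 1 member with a positive fold change was Il7r, at 350, 302, 388 and 387 CPM (log2 fold change 0.25, edgeR adjusted p = 0.5625). Dapl1, a marker of unprimed CD8 T cells, stood at 83.3, 56.4, 8.73 and 15.8 CPM, a log2 fold change of -2.44 ± 0.344 (edgeR adjusted p = 0.00565). Both aged mice were far below both adult mice. Lef1, a transcription factor of naive T cells, stood at 100, 99.2, 38.4 and 45.3 CPM, and the chromatin organiser Satb1 at 152, 128, 55.0 and 53.8 CPM. Actn1, an actin cross-linker, stood at 40.5, 60.3, 8.73 and 11.2 CPM. Klf2, a regulator of exit from lymph nodes, stood at 300, 568, 256 and 185 CPM, with a log2 fold change of -0.999 that was not called (adjusted p = 0.0923). Ccr9, the receptor for the gut and thymus chemokine CCL25, stood at 47.6, 38.9, 0 and 5.25 CPM and fell, the 1 called member of 12 chemokine receptors. The numbers of cells behind these sums were small: Dapl1 was seen after thinning in 5.63%, 3.49%, 0% and 0.34% of the T cells.

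**Figure D3:**
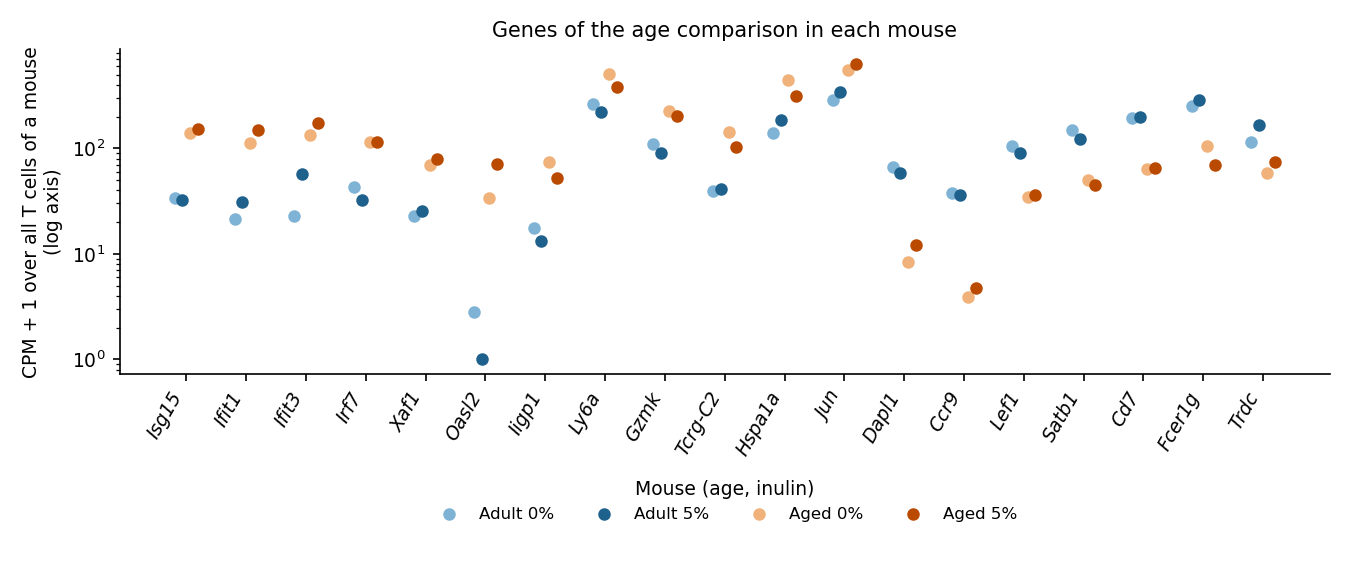
CPM plus 1 on a log axis, over all T cells including mixed droplets, of 19 genes in each of the 4 mice. Interferon-induced genes such as Isg15 (33.0, 31.4, 138 and 152 CPM) are higher in both aged mice, and genes on the right such as Dapl1 and Fcer1g are lower in both.

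Among receptors and adaptors shared with NK cells the calls were also of lower levels in the aged mice. Of 11 tested, 2 fell (0.188% of all genes), 8 were lower at an unadjusted p under 0.05 (4.01% of all genes), none had a positive fold change, and the median log2 fold change was -0.81. Fcer1g (chr1:171229572-171234365), the signalling chain shared by Fc and NK receptors, stood at 283, 267, 63.7 and 95.8 CPM and fell by 1.76 ± 0.191 on the log2 scale (edgeR adjusted p = 0.00164), which is 3.395-fold lower. Tyrobp, the adaptor DAP12, stood at 133, 253, 73.3 and 61.0 CPM (adjusted p = 0.0102). Cd7, an immunoglobulin-family surface protein of T and NK cells, fell as well, at 241, 189, 70.7 and 89.3 CPM. Klrd1, which encodes CD94, had a log2 fold change of -0.65 and was not called (adjusted p = 0.057). Summed NK markers, led by Gzma, stood at 681, 1371, 666 and 471 UMIs per 1000000 without mixed droplets, highest in the adult mouse fed 5% inulin. Cells with neither CD8 nor Cd4 UMIs, which held Fcer1g at the highest level, were also a smaller share of the T cells in the aged mice. In them, mixed droplets included, Fcer1g stood at 696, 753, 385 and 227 UMIs per 1000000. In CD8 cells, mixed droplets included as well, it stood at 111, 15.3, 74.8 and 8.94. In the aged mouse fed 0% inulin the highest T cell held 54 of the 143 Fcer1g UMIs. The class levels of that mouse therefore rest in part on a single barcode. The part of the change in class shares in these values was not tested. Nor was the part of the 54 T cells that met the NK limit (6, 16, 18 and 14), some of which may be NK cells.

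Of the 10 cytotoxic genes tested, 1, Gzmk, rose (0.482% of all genes), 3 were higher at an unadjusted p under 0.05 (5.83% of all genes), 8 had positive fold changes, and the median was 0.24. Gzmk (chr13:113171608-113225908) stood at 140, 93.4, 261 and 268 CPM, a log2 fold change of 1.19 ± 0.182 (edgeR adjusted p = 0.00902). A UMI of it was seen in 33.8%, 24.4%, 64.2% and 59.0% of the T cells, and after thinning in 9.86%, 5.81%, 17.9% and 20.1%, against at most 0.0501% of barcodes with endothelial genes. Cst7 had a log2 fold change of 0.64 (78.6, 101, 136 and 146 CPM, adjusted p = 0.208) and Gzmb, granzyme B, one of 0.25. Tnf, the inflammatory cytokine, rose from 14.3 and 17.5 CPM to 63.7 and 58.4, and Crtam, a surface protein of activated cytotoxic cells, from 7.14 and 9.73 to 44.5 and 40.03. Of 13 residency genes none was called and 4 were higher at an unadjusted p under 0.05, with a median of 0.41. Of 8 checkpoint genes none was called, and Pdcd1 (PD-1) and Tox had log2 fold changes of 0.65 and 0.49. None of the 14 class I MHC genes was called, but all 14 had positive fold changes, 7 at an unadjusted p under 0.05, with a median of 0.30.

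Genes that respond to stimulation and stress moved in part. Of 14 immediate early genes 3 rose (0.482% of all genes), and 13 had positive fold changes. Jun, a subunit of AP-1, stood at 271, 368, 596 and 777 CPM, and Egr1, a zinc-finger factor, at 16.7, 33.1, 76.8 and 104 CPM. Ier3, an early response gene, rose from 9.52 and 13.6 CPM to 68.1 and 61.0. Of 10 heat shock genes the 2 inducible HSP70 genes rose. Hspa1a stood at 162, 169, 478 and 399 CPM (log2 fold change 1.40 ± 0.147, edgeR adjusted p = 0.00164), and Hspa1b, a near-identical copy whose reads may be shared with it, at 150, 187, 334 and 276 CPM. Apart from them, Dnajb1 was higher and 4 of the heat shock genes were lower at an unadjusted p under 0.05 (5.83% and 4.01% of all genes), and the list's median was -0.24. Immediate early and HSP70 genes are also known to be induced by tissue dissociation, whose part was not tested.

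**Figure D4:**
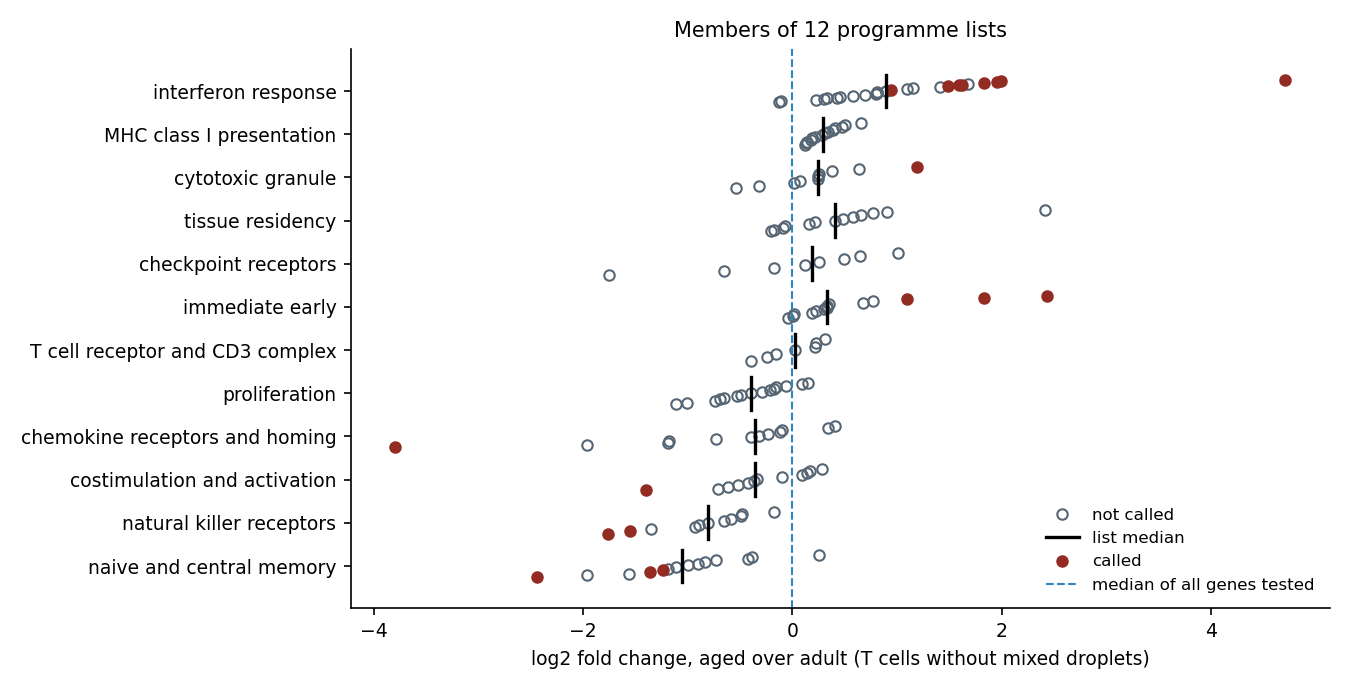
Log2 fold change, aged against adult without mixed droplets, of the members of 12 gene lists, with called genes filled, the median of each list as a bar and the median of all genes as a dashed line. Of the interferon-induced genes 24 of 26 lie above 0 with a median of 0.90, and the medians of naive and central memory genes (-1.05) and NK receptors (-0.81) lie below 0.

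Genes of the gamma and delta receptor chains went both ways. Of 8 tested, 2 rose and 1 fell (0.482% and 0.188% of all genes). Tcrg-C2 (a gamma constant region) rose from 45.2 and 42.8 CPM to 168 and 137, and the gamma variable gene Trgv2 from 35.7 and 17.5 to 98.7 and 76.8. Trdc, the delta constant region that gamma delta T cells use, fell from 148 and 185 CPM to 68.1 and 80.1 (log2 fold change -1.17, edgeR adjusted p = 0.00957). In cells with neither co-receptor, mixed droplets included, it stood at 304, 447, 478 and 258 UMIs per 1000000, with no order by age. These cells were a smaller share of the T cells in the aged mice, and the part of that change in the Trdc values was not tested. Gamma chain transcripts are also made by alpha beta T cells, and in CD8 cells, mixed droplets included, Tcrg-C2 stood at 38.0, 45.9, 169 and 104 UMIs per 1000000. The gamma constant genes are near-identical copies, so their counts are uncertain.

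The other lists had few called members. Receptor-proximal signalling genes (14 tested), chemokines (5), integrins (9), lineage transcription factors (11), regulatory T cell genes (7), proliferation genes (15) and ribosomal proteins of the cytosol (21) had none, with medians between -0.39 and 0.39. Of the 21 ribosomal genes 19 had positive fold changes and 10 were higher at an unadjusted p under 0.05 (5.83% of all genes), with a median of 0.13. The rule used 5 of the 7 genes of the receptor and CD3 list to choose the cells, so its age values are not read. Among co-receptors Cd8a rose, at 338, 270, 519 and 522 CPM, while Cd8b1 did not pass (574, 393, 667 and 700 CPM, adjusted p = 0.216), and Cd4 stood at 33.3, 58.4, 39.3 and 10.5 CPM. Tnf was the 1 called member of 5 cytokines (0.482% of all genes were called higher) and Cd7 that of 12 costimulation genes (0.188% were called lower). Of 12 genes of the mitochondrial genome mt-Atp6 rose (0.482% of all genes), and all 12 had positive fold changes with a median of 0.29, in mice whose T cells also had higher mitochondrial shares.

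Several of the 50 genes are known from other cells. Igkc, the immunoglobulin kappa constant region, stood at 9.52, 21.4, 67.2 and 65.6 CPM in the T cells without mixed droplets, and in all other barcodes at 10.4, 14.2, 1257 and 670. It was also one of the genes that defined mixed droplets, as was Ttr. Apoe, a lipid carrier of glia, stood at 326, 298, 542 and 629 CPM in T cells and at 5023, 4674, 6884 and 7520 in all other barcodes. Dcn, a fibroblast proteoglycan, rested on 2 cells, which held 73 of 74 UMIs in the aged mouse fed 0% inulin and 200 of 208 in the aged mouse fed 5%. The rule for mixed droplets had no fibroblast genes, so these cells stayed in, and Dcn stood at 64.6 and 134 CPM there. The Dcn call therefore rests on 2 barcodes that may hold RNA of a fibroblast as well. The part of free RNA in the Igkc and Apoe values was not tested.

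Within CD8 T cells, interferon-induced, immediate early, HSP70 and gamma chain genes and Dapl1 were among the few calls. Over all 415 cells edgeR called 0 of 7171 genes (0%), with 319 (4.45%) at an unadjusted p under 0.05, and DESeq2 called 1. Without mixed droplets 9 were higher (0.156%) and 1 lower (0.0174%), 10 of 5758 (0.174%). The 9 were Isg20, Isg15, Ier3, Tcrg-C2, Jun, Trgv2, Ifit1, Hspa1a and Oas3. Isg15 stood at 58.4, 40.7, 185 and 174 CPM in CD8 cells (log2 fold change 1.83, edgeR adjusted p = 0.0253). Dapl1 alone fell, at 97.3, 86.0, 12.2 and 23.2 CPM (log2 fold change -2.33). All 10 were among the 50 genes called over all classes. With fewer than 20 CD4 cells in 3 of the mice, no age test was run on CD4 cells alone.

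CD8 cells of the same mice held more Ccl4, Ccl5, Xcl1, Gzmb, Nkg7 and Klrd1 than CD4 cells, and CD4 cells more Icos. Cd8a, Cd8b1 and Cd4 were left out, since they made the split, and the mouse was a block. Over all T cells 19 genes were higher in CD8 (0.659%) and 8 in CD4 cells (0.277%), 27 of 2885 (0.936%). The 19 included the choroid plexus genes Ttr, Enpp2, Igfbp2, Sostdc1, Kcnj13, Trpm3 and 1500015O10Rik, none of them called without mixed droplets, where 3 of the 7 (Ttr, Enpp2 and 1500015O10Rik) passed the filter on low counts. Without mixed droplets 30 (1.28%) and 26 (1.11%) were, 56 of 2340 (2.39%). Ccl4, the chemokine MIP-1 beta, stood at 369, 547, 370 and 532 CPM in CD8 and 0, 0, 8.08 and 58.3 in CD4 cells (log2 difference 5.23, edgeR adjusted p = 2.175e-07). Gzmb stood at 175, 145, 297 and 203 CPM in CD8 cells and had UMIs in the CD4 cells of 1 mouse (13.1 CPM). Ccl5 stood at 7341, 8608, 8968 and 12438 CPM against 753, 6556, 1269 and 553. Its CD4 value was high in the adult mouse fed 5% inulin, so the gap was uneven but of 1 direction in all 4 mice.

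Higher in CD8 cells were also the lymphotactin gene Xcl1 (log2 difference 3.02), the NK-type receptors Klrd1 (2.51), Klrk1 (2.37) and Cd160 (3.56), the surface protein Ly6c2 (2.44), the granule genes Nkg7 (1.75), Ctsw (1.09) and Cst7 (1.75), and the transcription factors Tox (1.87) and Runx3 (1.07). Of these, Ctsw, Cst7, Tox and Runx3 were called without mixed droplets and not over all T cells (edgeR adjusted p = 0.0634, 0.0653, 0.0634 and 0.128). Higher in CD4 cells was Icos, a costimulatory receptor of helper T cells, at 203, 274, 210 and 291 CPM against 47.3, 37.6, 24.8 and 28.5 in CD8 cells (log2 difference -2.92, edgeR adjusted p = 3.314e-06). Icos did not overlap between the classes in any mouse. Maf (-2.04), Ikzf2 (-2.49, the factor Helios), Capg (-2.47), Cd5 (-1.81) and Fos (-1.84) were also higher in CD4 cells without mixed droplets, and Fos was not called over all T cells (adjusted p = 0.0547). Of the 13 immediate early genes tested without mixed droplets, 5 were higher in CD4 cells (1.11% of all genes) and 1 in CD8 cells (1.28%), with a median of -0.62. Over all T cells edgeR called 0 of the 13. At an unadjusted p under 0.05, 8 were higher in CD4 and 1 in CD8 cells there, against 319 of all 2885 genes in either direction. The CD4 sums held 53630, 98921, 178639 and 38133 UMIs against 368080, 261158, 1069108 and 1566813 in CD8 cells. A level of 0 in CD4 cells therefore means that no UMI was counted at that depth and does not show absence. Srgn, the proteoglycan core of the granules, lay the other way in each mouse, at 367, 402, 459 and 401 UMIs per 1000000 in CD8 and 559, 1011, 672 and 892 in CD4 cells over all T cells (log2 difference -0.74, not called, edgeR adjusted p = 0.105).

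**Figure D5:**
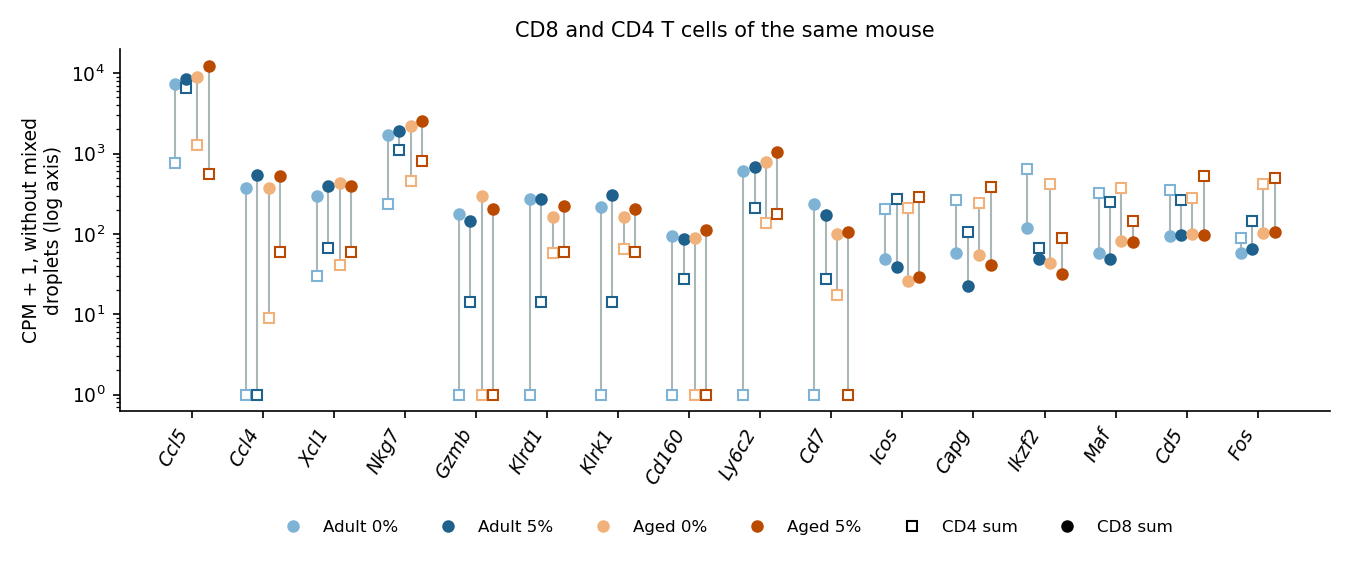
CPM plus 1 on a log axis in CD8 cells (circles) and CD4 cells (squares) of each mouse, without mixed droplets, for 10 genes higher in CD8 and 6 higher in CD4 cells. Ccl4 lies at 369 to 547 CPM in CD8 cells and at most at 58.3 in CD4 cells, and Icos at 203 to 291 CPM in CD4 cells and at most at 47.3 in CD8 cells.

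The 160 cells with neither co-receptor held cells of unlike kinds. Trdc was seen in 6, 9, 8 and 11 T cells, 34 in all, of which 28 had neither co-receptor. Of these 34, 18 held Cd163l1 (the scavenger receptor SCART1 of gamma delta T cells), 22 Tcrg-C1 and 17 the kinase gene Blk. Of the same 34, 16 held Trac and all 34 Trbc2, both genes of the rule that chose the cells. At least 3 UMIs of the NK genes Ncr1, Klrb1c and Klre1 were held by 54 T cells, 38 of them with neither co-receptor. Trac was seen in 80 of the 160 against 372 of 415 CD8 cells.

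Transcripts of Il17a, which encodes interleukin-17A, were seen in 1 mouse. They numbered 0, 0, 0 and 361 UMIs and were held by 13 T cells of the aged mouse fed 5% inulin, and Il17f had 0 UMIs in the T cells. The highest of these cells held 116, 97, 57 and 38 UMIs. Of the 13, 9 had neither co-receptor, 3 had Cd4 and 1 had CD8 UMIs. Tcrg-C1 was seen in 8 of them and Trdc in 3. Of the 13 cells, 4 held a single UMI. The count of 0 in the other mice allows up to 4.23%, 3.49% and 1.58% of their T cells to hold a UMI, which limits cells with a UMI and not cells expressing the gene. With 1 mouse per combination this is a value of 1 animal. Foxp3, the factor of regulatory T cells, was seen in 3, 1, 3 and 1 cells.

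Variable gene segments of the receptor were seen in a minority of cells, since the libraries read the 3′ end. An alpha variable (Trav) gene was seen in 10, 14, 46 and 66 cells and a beta variable (Trbv) gene in 6, 8, 20 and 39. In the aged mouse fed 0% inulin Trbv2 was seen in 11 of 20 such cells (55.0%, 95% Clopper-Pearson interval 31.5 to 76.9). In the aged mouse fed 5% inulin Trav13-1 was seen in 21 of 66 (31.8%, 20.9 to 44.4), Trav17 in 20, and Trbv3 in 11 of 39 (28.2%, 15.001 to 44.9). Trbv2 was seen in 9 of the 39 cells of that mouse, close behind Trbv3, and Trbv3 in 0 of the 20 cells of the aged mouse fed 0%. In the adult mice too few cells held a segment to order them. Several Trav genes are near-identical copies, so the count of a single one is uncertain, and variable genes do not identify a clone.

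The comparison of diet, over the same 2 mice against 2, gave no called gene over all T cells. edgeR called 0 of 8506 (0%), with 169 (1.99%) at an unadjusted p under 0.05, and DESeq2 called 0, with 44 at an unadjusted p under 0.05. Without mixed droplets edgeR called 0, with 240 at an unadjusted p under 0.05, and with age as a covariate as well it called 7 higher and 11 lower. Of 15 proliferation genes 7 were lower with 5% inulin at an unadjusted p under 0.05 (1.12% of all genes), with a median log2 fold change of -1.25. Mki67, the proliferation antigen Ki-67, stood at 139, 54.1, 136 and 16.7 CPM, with a log2 fold change of -2.16 that was not called. These UMIs came from few cells: at least 10 UMIs of 10 cell cycle genes were held by 5, 2, 8 and 2 T cells, and the 5 highest cells of each mouse held 95.6%, 94.4%, 74.8% and 81.0% of the cell cycle UMIs.

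The age effect of T cells was set against that of all other barcodes to ask which differences are particular to T cells. Without the genes of the selection rule, 12 genes (0.0587%) had a higher and 26 (0.127%) a lower age effect in T cells, 38 of 20431 (0.186%), and the median difference over all genes was 0.23 (log2). With the rule's genes included, DESeq2 called 1 higher and 27 lower, and edgeR without mixed droplets 65 and 67. Over all T cells the edgeR counts fell when either aged mouse was left out and rose when either adult mouse was. Hspa1a differed by 1.56, being higher in aged T cells, and stood at 336, 279, 232 and 286 CPM in the other barcodes. Fcer1g differed by -2.26 and Tyrobp by -1.94, and both were higher in the other barcodes of the aged mice (Fcer1g at 240, 244, 398 and 386 CPM, and Tyrobp at 321, 330, 608 and 585). Lef1, which endothelial cells also express, differed by -1.41 and stood at 95.7, 115, 93.6 and 118 CPM in the other barcodes. Cd7 differed by -1.58 but stood at only 0.78, 0.97, 0.75 and 1.05 CPM in the other barcodes. At so low a level there, this contrast cannot show what is particular to T cells. The age effect of CD8 against CD4 cells differed for 3 of 3995 genes (0.0751%), none of them without mixed droplets (158 at an unadjusted p under 0.05), and rests on the same 9, 16, 24 and 9 CD4 cells. The age effect of T cells against NK-like barcodes was higher for 12 (0.202%) and lower for 3 (0.0504%) of 5954 genes (0.252%) and rests on 2 to 10 NK-like barcodes per mouse. Since 54 T cells also met the NK limit, this contrast does not cleanly separate the cell types.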

How the data were processed

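Single cells from 4 whole brains were sequenced with 10x 3′ libraries. The authors counted UMIs per gene and barcode, with Cell Ranger 3.1.0 and GRCm38 named in the submitters' processing notes, and deposited whole-number counts that were not normalized. The files list 55573 genes. Groups were taken from the sample labels, which give no replicate numbers. T cells were chosen by the limits given above. No doublet calls were removed, and Scrublet (scanpy 1.11.5, expected rate 0.08) and the rule for mixed droplets served as alternatives. UMIs were summed per mouse and fitted with edgeR 4.0.16 (quasi-likelihood, TMM, filterByExpr, R 4.3.3). Differences between classes had the mouse as a block, and those between age effects an interaction term. P-values were Benjamini-Hochberg adjusted over all tested genes, and genes were called at over 1.5-fold with an adjusted p under 0.05. SE was the absolute log2 fold change divided by the square root of F. DESeq2 1.42.0 and limma 3.58.1 were alternatives, and each mouse was left out in turn. Shares were compared with an exact two-sided permutation test (scipy 1.17.1). The code was tested on simulated counts with 200 changed genes. Genes named are up to 15 called genes per direction by adjusted p for age, up to 10 for other comparisons, called members of 23 gene lists, and the 3 most abundant members of each. Members of lists and cell subsets named beyond these were chosen after their values were seen. The T cell rule, the lists and the tests were chosen with earlier results of these data known.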

Additional observations from a re-analysis of the deposited data

Results flagged for a closer look

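Groups of 2 mice are too small for a check of single outlying samples, and the results below are those whose effect differed between classes of cells or between ages.

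The age effect of T cells differed from that of all other barcodes for 12 genes in the higher and 26 in the lower direction (edgeR interaction with the mouse as a block). These counts fell when either aged mouse was left out and rose when either adult mouse was. The median difference over all genes was 0.23 on the log2 scale with TMM scaling and -0.05 with DESeq2, so small differences shift with the scaling. The age effect was higher in T cells for Hspa1a (1.56). It was lower for genes of T and NK cells, namely Cd7 (-1.58), Cd8a (-2.36), Cd8b1 (-3.48), Cxcr6 (-2.33), Dapl1 (-3.80) and Pdcd1 (-3.07). It was lower as well for Ccl4 (-2.01), Cst7 (-3.52), Lef1 (-1.41), Fcer1g (-2.26), Tyrobp (-1.94), Itgb2 (-1.18), H2-Q6 (-1.64), H2-Q7 (-1.83) and Ifi27l2a (-1.86), which microglia, endothelial or other brain cells also express. Cd8b1 stood at 0.10, 0.07, 1.08 and 1.58 CPM in the other barcodes, and Cst7, a gene of activated microglia and of cytotoxic cells, at 2.08, 1.93, 33.0 and 36.6 CPM. The number of T cells was higher in the same mice as these values in the other barcodes. For genes near 0 there, the contrast therefore cannot show a difference particular to T cells. The part of free or uncalled T cell RNA was not tested.

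The age effect of CD8 cells was higher than that of CD4 cells for 3 genes and lower for 0 (edgeR, with 216 at an unadjusted p under 0.05, while DESeq2 made 0 calls, with 52 at that level). The 3, named after their values were seen, were Ptgds, Pcp4 and 2900040C04Rik, known from choroid plexus, meninges or neurons, and none was called without mixed droplets. Against NK-like barcodes the age effect of T cells was higher for 12 genes and lower for 3.

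The share of CD8 among T cells went in opposite directions with 5% inulin, by -10.7 percentage points in the adult mice and 1.70 in the aged mice. The difference in the CD4 share was 5.93 points in the adult pair and -9.56 points in the aged pair. With 1 mouse per combination this difference was not tested.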

How the results depend on the processing

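No paired analysis of adult and aged mice was possible because the labels give no replicate numbers. The main fits for age and for diet had no covariate. Diet, or age in the diet comparison, entered as a covariate only in an alternative fit. Comparisons between classes of cells had the mouse as a block. The difference in T cell share between ages stayed positive, between 1.91 and 2.77 percentage points with 1 mouse left out and between 2.22 and 2.61 under the other settings. The difference in the CD8 share of T cells ranged from 14.9 to 25.6 points with 1 mouse left out and was 11.3 with thinned cells, and the difference in the CD4 share of T cells from -12.6 to -3.01, with -3.36 at 2 Cd4 UMIs and -3.34 with thinned cells. Numbers of called genes are given as higher and lower. For age over all T cells the main 0 and 0 became 9 and 5 with DESeq2, 137 and 37 with no filter on low counts, 34 and 18 with the upper limit on UMIs, 11 and 6 with limma on means over cells, 36 and 14 without mixed droplets, and 0 to 114 and 0 to 48 with 1 mouse left out (114 and 48 without the aged mouse fed 0% inulin, 46 and 14 without the aged mouse fed 5%). With thinned cells none was called. Without mixed droplets, the 36 and 14 became 17 and 11 with DESeq2, 55 and 23 with diet as a covariate, 55 and 24 with a robust fit, and 0 to 59 and 0 to 44 with 1 mouse left out, and all 50 genes had the same direction in these 8 settings. For diet, 32 and 36 were called with no filter, 7 and 11 without mixed droplets and with age as a covariate, and 0 to 56 and 0 to 36 with 1 mouse left out. For age in CD8 cells the counts were 1 and 0 with DESeq2, 86 and 19 with no filter, 9 and 1 without mixed droplets, and 0 to 128 and 0 to 51 with 1 mouse left out. For CD8 against CD4 cells they were 126 and 33 with no filter, 30 and 26 without mixed droplets, and 18 to 34 and 9 to 15 with 1 mouse left out. For the age effect in CD8 against CD4 cells they were 0 with DESeq2, 11 and 7 with no filter, 0 without mixed droplets, and 6 to 11 and 2 to 26 with 1 mouse left out. For T cells against all other barcodes they were 12 and 30 with the rule's genes included, 1 and 27 with DESeq2, 119 and 83 with no filter, 65 and 67 without mixed droplets, and 2 to 173 and 2 to 65 with 1 mouse left out. For T cells against NK-like barcodes they were 0 and 0 with DESeq2, 5 and 2 with no filter, 12 and 11 without mixed droplets, and 0 to 100 and 0 to 10 with 1 mouse left out. A fit that leaves 1 mouse in a group assumes that it varies like the others. Without thinning, the age difference in the share of T cells with a Cd69 UMI turned to -2.15 and that in the share of T cells with a Pdcd1 UMI to 5.09. The alternatives for CD4 cells across ages were not run because 3 mice had fewer than 20 such cells. The causes of these changes were not tested. Depth limits the T cell sums of the adult mice most, since they hold 71 and 86 cells.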
